A study of Homo sapiens with 14 samples.

Results

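The 60 genes described here encode ribosome biogenesis factors, the nucleolar proteins that modify, fold and cut the precursor of ribosomal RNA and build it into the small and large ribosomal subunits. They were taken by symbol from a list, with no threshold on their values, and all 60 of the 60876 genes of the annotation were found by Ensembl identifier. RNA polymerase I transcribes the precursor in the nucleolus. The box C/D and box H/ACA snoRNPs methylate and pseudouridylate it, the UTP-A and UTP-B complexes and the U3 snoRNP assemble on its 5′ end to form the small-subunit processome, and the PeBoW complex and the rixosome act on the large-subunit side, where the internal spacer ITS2 is removed. The list holds 3 box C/D and 4 box H/ACA proteins, 4 nucleolar chaperones or scaffold proteins, 6 UTP-A, 6 UTP-B and 5 U3 or Mpp10 proteins, 10 other small-subunit factors, 3 PeBoW proteins, 5 rixosome or ITS2 processing proteins, 13 other large-subunit factors and the helicase DDX21. Many of these genes are known targets of MYC and are high in dividing cancer cells.

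RNA was measured in MDA-MB-231 cells, an established line of triple-negative breast cancer, in 7 groups of 2 libraries: the control and cells given 5 µM RBI2 or 5 µM CX-5461 with labels of 10, 30 and 120 min. All cells were plated overnight in medium with serum and their poly-A RNA was captured with a stranded kit. CX-5461 is an inhibitor of RNA polymerase I transcription, and RBI2 is a small molecule that the study describes as an inhibitor of ribosome biogenesis. The control has no compound in the labels; the methods call these cells untreated, whereas the results text of the study speaks of DMSO. The deposited tables carry the codes 2, 10 and 30 in their own names for the libraries labelled 10, 30 and 120 min, so every time below is a label, and the order of the labels may not be the order of the treatment times. No source says that the 2 replicates of a group were separate cultures, so p-values measure only the spread between these libraries.

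The libraries held 14112299 to 24849354 estimated reads, with a median of 16305236. Of the markers of this mesenchymal, receptor-negative line, VIM was at 2084 to 2694 TPM, CD44 at 472 to 750 TPM, AXL at 239 to 392 TPM and CAV1 at 204 to 333 TPM. ESR1 was at most 0.205 TPM, CDH1 at most 0.285 TPM, PGR at 0 TPM, GATA3 at 1.82 to 3.48 TPM and ERBB2 at 14.8 to 22.9 TPM. Control replicate 2 stood apart. Mitochondrial genes took 20.4% of its reads against 8.05 to 11.2% in the other 13 libraries. The 58 ribosome biogenesis genes that could be tested differed between the control replicates by a median absolute log2 ratio of 0.27, against 0.04 to 0.11 between the replicates of the 6 treated groups. Counts and called genes in the comparisons with the control are therefore also given without control replicate 2.

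Of the 60 genes, 58 passed the filter on low counts. PWP2, a UTP-B protein, had 0 to 7 estimated reads in every library, and 94.7% of the 31-base words of its transcript also lie in ENSG00000275464, an entry that the annotation marks as an artifact and that held 667 to 1664 reads. WDR36, also of UTP-B, had 0 to 8 reads in 13 libraries and 356 in control replicate 2. Neither gene is described further as a level. Other genes share sequence with entries to which reads can be assigned. NOP2 shared 96.2% of its words with ENSG00000285238, which took 0 to 1396 reads. DDX47 shared 99.7% with APOLD1 (56 to 141 reads), SENP3 59.3% with the readthrough gene SENP3-EIF4A1 (0 to 107 reads), and UTP14A 21.5% each with ALG11 (221 to 726 reads) and UTP14C (0 to 193 reads). NPM1 shared 40.1% with the pseudogene NPM1P27 (0 to 8 reads) and NHP2 22.9% with NHP2P1 (0 to 1 reads). How reads were divided among these entries was not tested.

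The promoters of 4 genes are shown, chosen after their values were seen because these genes differed between treatments: NOL9 was the gene with the largest rise, RRP15 was the only gene called with RBI2 labelled 10 min, and WDR3 and TEX10 were lower with RBI2 than with CX-5461 at the label of 120 min. Each window is the 250 bases upstream of the gene start in RefSeq on GRCh38.p14, written 5′ to 3′ on the gene's strand, at chr1:6554514-6554763 (minus) for NOL9, chr1:218285043-218285292 (plus) for RRP15, chr1:117929489-117929738 (plus) for WDR3 and chr9:100352943-100353192 (minus) for TEX10. Capitals mark the E-box CACGTG, which MYC and related factors can bind, and the ETS letters CCGGAA, or TTCCGG where they lie on the other strand.
NOL9: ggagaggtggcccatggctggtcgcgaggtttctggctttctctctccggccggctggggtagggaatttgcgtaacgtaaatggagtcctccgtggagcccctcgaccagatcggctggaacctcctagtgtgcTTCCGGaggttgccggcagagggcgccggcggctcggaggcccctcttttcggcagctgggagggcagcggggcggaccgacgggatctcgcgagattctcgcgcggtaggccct
RRP15: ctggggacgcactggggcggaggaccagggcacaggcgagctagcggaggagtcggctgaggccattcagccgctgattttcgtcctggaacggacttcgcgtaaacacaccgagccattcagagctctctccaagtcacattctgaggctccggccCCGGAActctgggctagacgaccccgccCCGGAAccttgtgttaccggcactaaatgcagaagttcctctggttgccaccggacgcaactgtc
WDR3: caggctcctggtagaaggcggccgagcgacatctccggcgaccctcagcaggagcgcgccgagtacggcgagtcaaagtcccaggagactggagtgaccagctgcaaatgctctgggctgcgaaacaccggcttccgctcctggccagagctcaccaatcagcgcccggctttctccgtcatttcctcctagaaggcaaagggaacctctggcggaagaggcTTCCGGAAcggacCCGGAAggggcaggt
TEX10: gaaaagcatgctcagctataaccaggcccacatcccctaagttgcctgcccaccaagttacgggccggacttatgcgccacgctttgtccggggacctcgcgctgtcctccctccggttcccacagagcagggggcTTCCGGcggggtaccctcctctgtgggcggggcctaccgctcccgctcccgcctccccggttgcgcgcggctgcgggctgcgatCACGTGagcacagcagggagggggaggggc
A RefSeq window was found for 51 of the 60 genes. The E-box letters occurred in 9 of the 51 windows (17.6%), against 6.49% of 27305 promoter windows of the same length over all genes and 7.86% of 15322 windows of protein-coding genes. The ETS letters occurred in 23 of 51 (45.1%), against 14.8% of all windows and 19.6% of those of protein-coding genes. NOL9 held 1 ETS match, RRP15 2 and WDR3 3, of which 2 overlap on opposite strands, and TEX10 held 1 ETS match and 1 E-box that begins 30 bases upstream of the start. A match of 6 letters is a description of the window and was not tied to binding here.

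Levels were compared between genes in TPM, which is per length. Of the 58 genes, 25 had a mean over 100 TPM and 33 lay between 10 and 100 TPM, with a median of 86.2 TPM. NPM1, a histone and ribosomal protein chaperone of the granular nucleolus, was the most abundant, at 2925 to 3603 TPM, followed by nucleolin (NCL), which binds the nascent precursor, at 1416 to 2284 TPM. These chaperones made 44.6% of the summed TPM of the list, which ran from 10517 to 11765 over the libraries. Fibrillarin (FBL), the methyltransferase of the box C/D snoRNP, followed at a mean of 543 TPM, with its partner NOP56 at 394 TPM, and NOP10 of the box H/ACA snoRNP at 334 TPM. The highest gene of each other role was EBNA1BP2 among the large-subunit factors (274 TPM), DDX21, a helicase of RNA polymerase I and snoRNP sites (255 TPM), WDR12 of PeBoW (225 TPM), UTP18 of UTP-B (191 TPM), NOL11 of UTP-A (184 TPM), DCAF13 among the small-subunit factors (112 TPM), SENP3 of the rixosome, a SUMO protease (110 TPM), and IMP4, which places the U3 snoRNA (99.4 TPM). The lowest were the helicase DDX51 (13.3 TPM), the rixosome scaffold PELP1 (17.5 TPM) and the UTP-A scaffold HEATR1 (17.9 TPM). Genes of 1 complex thus differed widely in level, as UTP18 and WDR3 (25.8 TPM) of UTP-B show.

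**Figure D1:**
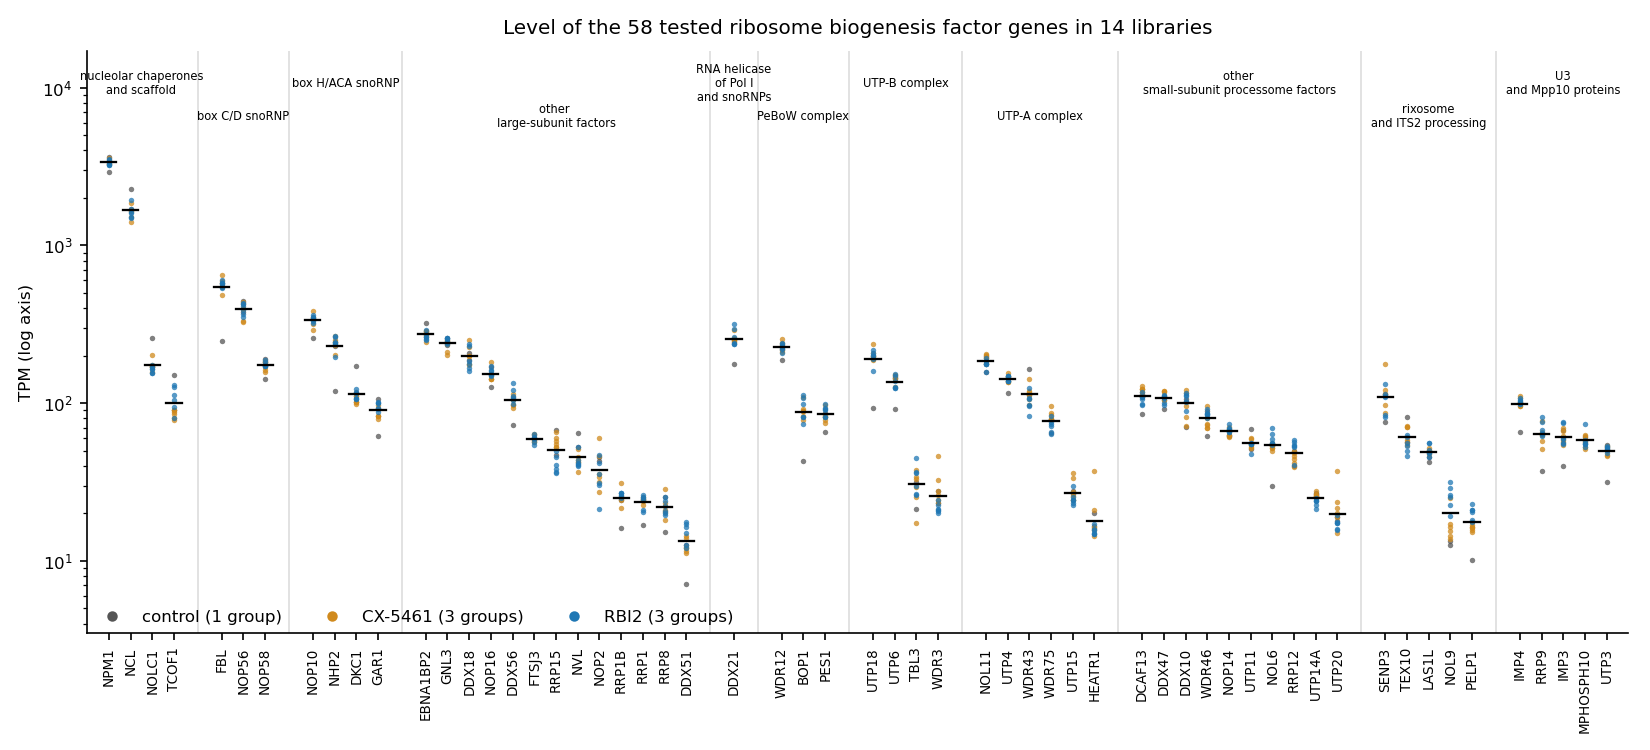
TPM (log axis) of the 58 tested genes, parted by role and ordered by mean. Each point is 1 of 14 libraries (grey control, orange CX-5461, blue RBI2) and each bar the mean over all libraries; NPM1 and NCL stand highest, with means of 3353 and 1686 TPM.

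The list took 1.14 to 1.21% of all estimated reads, with control replicate 2 lowest, and 1.25 to 1.43% of the reads outside mitochondrial genes, with control replicate 2 highest. The median log2 fold change of the 58 genes lay between -0.09 and 0.01 in the 6 comparisons with the control, where the median over all genes tested lay between -0.05 and 0.06. No called gene of the list differed by more than the 0.91 of NOL9, on the log2 scale, in any of 14 comparisons. These are shares of a library, so a change of all RNA in the cells would not show, and in a culture fewer cells and less RNA per cell cannot be told apart. Single genes rose and fell, mainly in the RBI2 libraries labelled 120 min.

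With RBI2 labelled 120 min against the control, 17 of the 58 genes passed the test (quasi-likelihood F test of edgeR, Benjamini-Hochberg adjusted over 15426 genes, adjusted p under 0.05), where 18% of all genes tested did. Of these 12 were lower, against 9.07% of all genes, and 5 were higher, against 8.9% of all genes. The roles of the small-subunit processome held 6 UTP-A, 4 UTP-B, 5 U3 and Mpp10 and 10 other genes among the 58 tested. Of the lower genes 11 were among the 29 tested genes of lower GC content, and 8 belong to the small-subunit processome. These 8 were WDR43, WDR75, NOL11 and UTP4 of UTP-A, WDR3 and UTP6 of UTP-B, and the other small-subunit factors DCAF13 and DDX47. The other 4 were RRP15, GNL3, NPM1 and the rixosome protein TEX10, which fell by 0.39 ± 0.09 (-0.27 and not called without control replicate 2). The higher genes were NOL9 and PELP1 (0.43 ± 0.09) of the rixosome and ITS2 group, the small-subunit factors RRP12 and NOL6, and TCOF1. PELP1 ran from 0.28 to 0.57 with 1 library left out. The count of 17 became 9 without control replicate 2 (8.27% of all genes), of which 7 were among the 17 (DCAF13, NOL11, NOL9, PELP1, RRP12, RRP15 and TCOF1) and the others were DDX21 (0.24) and UTP18 (-0.34). It became 42 without control replicate 1 (43.1% of all genes) and 2, NOL9 and TCOF1, without RBI2 replicate 1 (0.448% of all genes) or replicate 2 (0.988%). It was 0 when only the 4 libraries of the comparison were fitted (0% of all genes), and 0 with an offset for average transcript length (1.4% of all genes). The fit without control replicate 1 tested 59 genes of the list, as WDR36 passed the filter there, and its count of 42 includes WDR36.

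The UTP-A complex binds the 5′ external spacer first. All 6 of its genes had values below the control in this comparison, with log2 fold changes from -0.57 to -0.28 and a median of -0.43, and 4 of them passed. They ran from -0.35 to -0.08 without control replicate 2, with a median of -0.23, and 1 passed. WDR43, a UTP-A subunit, was at 198 and 264 CPM in the control, 224 and 208 CPM with RBI2 labelled 10 min, 171 and 187 CPM at 30 min and 150 and 162 CPM at 120 min. The RBI2 libraries labelled 120 min lay below both control libraries, although the control libraries were far apart. The log2 fold change was -0.57 ± 0.13 (SE, edgeR adjusted p = 0.0217), and it was -0.35 (edgeR adjusted p = 0.0684) without control replicate 2. All 6 UTP-A genes also lay below the control, with none called, with RBI2 labelled 10 min (-0.33 to -0.10) and 30 min (-0.41 to -0.22) and with CX-5461 labelled 10 min (-0.31 to -0.09) and 30 min (-0.39 to -0.14), whereas with CX-5461 labelled 120 min 2 lay below and 4 above it; these comparisons share the control libraries. Without control replicate 2 the 6 values ran from -0.07 to 0.11 and from -0.20 to -0.02 for RBI2 labelled 10 and 30 min. They ran from -0.05 to 0.04, from -0.10 to 0.05 and from 0.02 to 0.40 for CX-5461 labelled 10, 30 and 120 min. All 6 then lay below the control with RBI2 labelled 30 and 120 min and in no other of these comparisons. Over the list, 40, 39 and 36 of 58 genes then lay below the control with RBI2 labelled 10, 30 and 120 min. With CX-5461 these counts were 28, 23 and 29. The 3 box C/D genes also all lay below it with RBI2 at every label and with CX-5461 labelled 120 min. The 4 box H/ACA genes did so with RBI2 labelled 120 min, whereas the 3 PeBoW genes all lay above it with RBI2 labelled 30 and 120 min. WDR75 followed at -0.54 ± 0.14 (edgeR adjusted p = 0.0302) and NOL11 at -0.41 ± 0.09 (edgeR adjusted p = 0.0189); without control replicate 2 WDR75 and UTP4 were at -0.27 and -0.17 and did not pass, and NOL11 passed at -0.28 (edgeR adjusted p = 0.0461). HEATR1 and UTP15 did not pass, at -0.45 and -0.32 (-0.18 and -0.08 without control replicate 2). The canonical transcripts of the 6 genes held 38.6 to 47.2% GC. With the offset for GC content and length none of the 4 calls was kept, and HEATR1 was called.

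In UTP-B, a complex of WD40 repeat proteins of the processome, WDR3 was at 132 and 161 CPM in the control and at 111 and 111 CPM with RBI2 labelled 120 min. Its log2 fold change was -0.40 ± 0.09 (edgeR adjusted p = 0.0216), and -0.26 (edgeR adjusted p = 0.0556) without control replicate 2. UTP6 fell by 0.31 on the log2 scale and was at -0.26, not called, without control replicate 2. UTP18 was at -0.23 and TBL3 at 0.31, and neither passed. UTP18 was at -0.34 and called without control replicate 2, where TBL3 was at 0.13. Among the 10 other small-subunit factors 2 rose, 2 fell and 6 did not pass. RRP12, an export factor of the small subunit, rose by 0.51 ± 0.09 and NOL6 (nucleolar RNA-associated protein) by 0.42 ± 0.10 (0.25 and not called without control replicate 2), whereas DDX47 fell by 0.33 (-0.23 and not called without control replicate 2) and DCAF13 by 0.29 (-0.27 and still called). UTP20, a large repeat protein of the processome, had the most negative value of the list at -0.61 and did not pass (edgeR adjusted p = 0.113), its control libraries being at 98.3 and 172 CPM. It was at -0.16 without control replicate 2, where RRP15 had the most negative value, -0.37. DCAF13 turned positive with the offset for GC content and length.

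None of the 5 U3 and Mpp10 proteins, the 3 box C/D, the 4 box H/ACA or the 3 PeBoW proteins passed in that comparison, nor did DDX21. Their values ran from -0.22 to 0.35 for U3 and Mpp10, from -0.24 to 0.15 for box C/D, from -0.06 to 0.21 for box H/ACA and from -0.05 to 0.35 for PeBoW. These ranges without control replicate 2 were -0.15 to 0.13, -0.15 to -0.01, -0.13 to -0.03 and 0.06 to 0.14 in the same order, and DDX21 was called. Among the chaperones NPM1 fell by 0.31 ± 0.07 (edgeR adjusted p = 0.0243; -0.20 and not called without control replicate 2), TCOF1 rose, and NCL (-0.17) and NOLC1 (-0.35) did not pass; without control replicate 2 these were at 0.07 and -0.09. Among 13 other large-subunit factors 2 were lower: RRP15, a factor of early large-subunit particles, and GNL3 (nucleostemin), a GTPase of proliferating cells, which fell by 0.29 ± 0.07 and was at -0.19, not called, without control replicate 2.

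NOL9, the polynucleotide kinase that acts on the cut ends of ITS2, had the largest rise of the list. It was at 54.1 and 57.2 CPM in the control, at 66.3 and 92.0 CPM with RBI2 labelled 10 min, at 86.8 and 82.9 CPM at 30 min and at 103 and 105 CPM at 120 min. With CX-5461 it was at 55.0 and 54.0 CPM, 53.3 and 48.0 CPM, and 53.1 and 57.5 CPM at the same labels. All 6 RBI2 libraries thus lay above all 8 others. The RBI2 libraries lay all above or all below the others for 3 of 58 genes, NOL9, RRP15 and UTP14A, against 1.16% of all genes. Against the control the log2 fold changes with RBI2 were 0.51 ± 0.13, 0.61 ± 0.13 and 0.90 ± 0.13, of which only the last passed (edgeR adjusted p = 0.185, 0.0955 and 0.00593). The call at 120 min was kept when each of the 4 libraries was left out in turn, with edgeR adjusted p from 0.00174 to 0.0489. It was lost, with the value at 0.97 and 0.91, under the offset for average transcript length (edgeR adjusted p = 0.064) and in the fit of only the 4 libraries (edgeR adjusted p = 0.279). NOL9 at 120 min against 30 min of RBI2 gave 0.29 ± 0.13 (edgeR adjusted p = 0.473), so no rise between labels was called.

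TCOF1, the treacle protein, which holds RNA polymerase I and its factors in the nucleolus, was at 344 and 339 CPM in the control, 346 and 397 CPM with RBI2 labelled 10 min, 430 and 406 CPM at 30 min and 500 and 504 CPM at 120 min. The CX-5461 libraries ran from 331 to 356 CPM, near the control. The log2 fold change with RBI2 labelled 120 min was 0.56 ± 0.08 (edgeR adjusted p = 0.00521), and it stayed called without each of the 4 libraries in turn. The transcript mix assigned to TCOF1 differed in control replicate 2, where its average effective length was 2075 bases against 5036 to 6290 bases in the other 13 libraries. With an offset for that length the value turned to -0.20 (edgeR adjusted p = 0.696). The same offset took TCOF1 from 0.02 to -0.85 with CX-5461 labelled 30 min. Without control replicate 2, and without the offset, TCOF1 was at 0.54 with RBI2 labelled 120 min. In the fit with both control libraries its direction thus depended on the use of the offset.

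RRP15 was the only gene of the list called with RBI2 labelled 10 min, where 0.201% of all genes were called and 0.0648% were called lower. It was at 90.5 and 93.8 CPM in the control and at 67.2 and 69.8 CPM with RBI2 labelled 10 min. It was at 70.6 and 67.0 CPM at 30 min and at 71.2 and 69.7 CPM at 120 min, whereas the 6 CX-5461 libraries lay between 76.0 and 82.7 CPM. The 3 treatments therefore did not overlap for this gene, as for 0.156% of all genes: the control was highest, CX-5461 lay between and RBI2 was lowest. Against the control the values were -0.43 ± 0.07, -0.42 ± 0.07 and -0.39 ± 0.07, with edgeR adjusted p of 0.0342, 0.0669 and 0.00937. RRP15 kept its call at 10 min without control replicate 1 and without control replicate 2, and lost it without 1 or the other RBI2 library (edgeR adjusted p = 0.271 and 0.264). That call was also lost with the replicate number as a block (edgeR adjusted p = 0.078), with the offset for GC content and length (-0.31, edgeR adjusted p = 0.294) and in the fit of only the 4 libraries (edgeR adjusted p = 0.88). With 1 library left out, RRP15 at 10 min ran from -0.46 to -0.39.

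With RBI2 labelled 30 min no gene of the list passed edgeR's test (0.0713% of all genes did), although 33 of 58 had an unadjusted p under 0.05, against 25.8% of all genes, and DESeq2 called 6 (3.66% of all genes). UTP20 was lowest at -0.60 and NOL9 highest at 0.61. In the fit without control replicate 2 UTP20 was at -0.15, NOP2 lowest at -0.51 and NOL9 highest at 0.64. The count without that library was also 0, and without control replicate 1 it was 40 (38.3% of all genes).

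**Figure D2:**
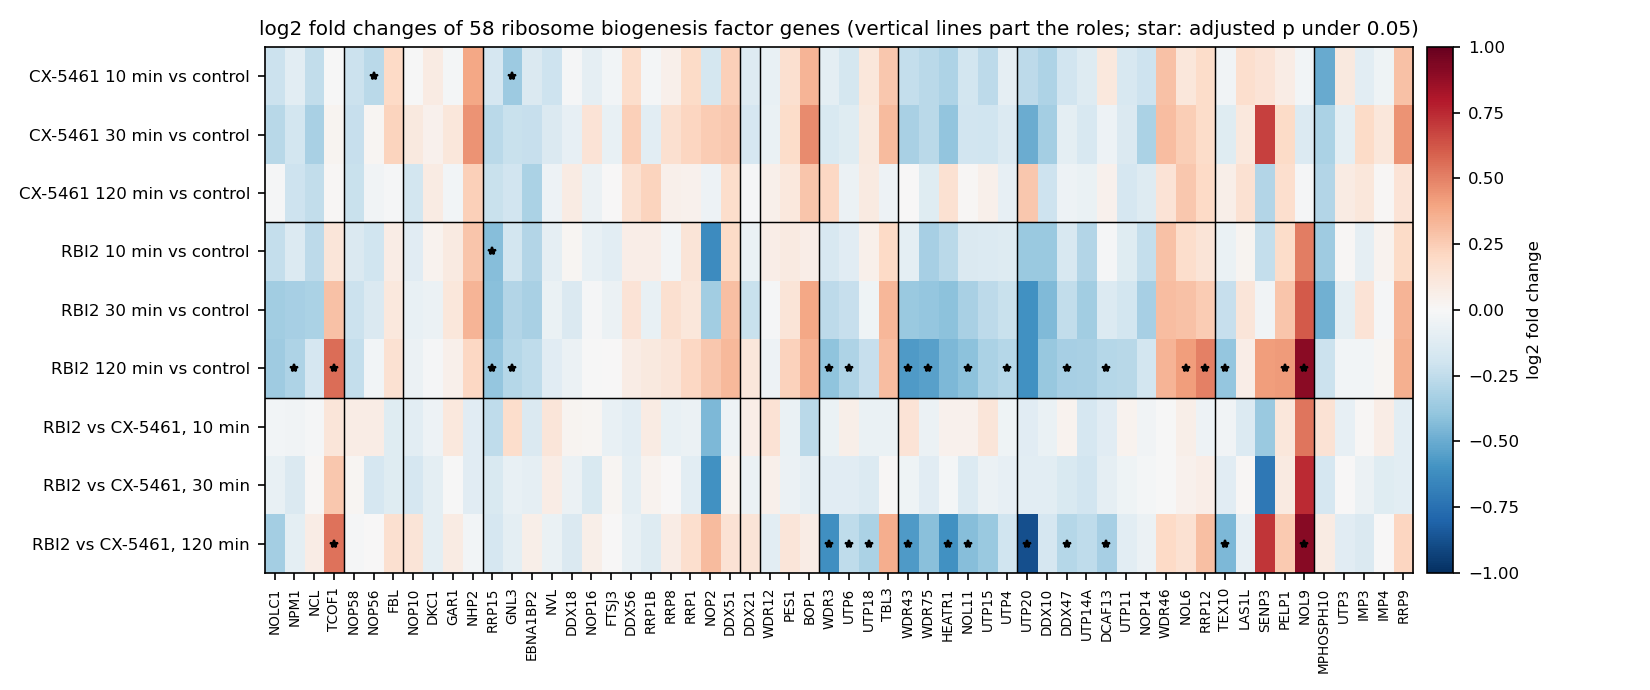
log2 fold changes of the 58 tested genes (columns, parted by role and ordered within a role by the value for RBI2 labelled 120 min against the control) in 9 comparisons (rows). A star marks an adjusted p under 0.05: 1, 0 and 17 genes for RBI2 against the control, 2, 0 and 0 for CX-5461 against the control and 0, 0 and 12 for RBI2 against CX-5461.

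With CX-5461 labelled 10 min against the control, 2 of 58 genes passed, where 4.77% of all genes did. Both were lower, as were 2.98% of all genes: NOP56, the core protein of the box C/D snoRNP, at -0.27 ± 0.06 (edgeR adjusted p = 0.0335), and GNL3 at -0.36 ± 0.07 (edgeR adjusted p = 0.0183). NOP56 was at 397 and 383 CPM in the control and at 328 and 318 CPM with CX-5461 labelled 10 min, the lowest of all 14 libraries. It was at 385 and 404 CPM at 30 min and at 381 and 380 CPM at 120 min. The difference between CX-5461 at 10 and 30 min was called as well, at -0.29 ± 0.06 (edgeR adjusted p = 0.0365), and NOP56 was the only 1 of 58 genes in that comparison, where 2.43% of all genes were called and 1.4% were called lower. GNL3 was at 275 and 316 CPM in the control, at 228 and 232 CPM with CX-5461 labelled 10 min and at 253 to 262 CPM at the labels of 30 and 120 min. With 1 library left out, NOP56 against the control ran from -0.29 to -0.22 and GNL3 from -0.46 to -0.26. NOP56 kept its call in 2 and GNL3 in 1 of these 4 fits. Without control replicate 2 NOP56 was at -0.29, and GNL3 was not called.

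With CX-5461 labelled 30 and 120 min no gene of the list passed edgeR's test, where 0% and 0.0778% of all genes did. DESeq2 called 0 in both, where it called 0.162% and 0.525% of all genes. At an unadjusted p under 0.05 there were 14 and 7 genes, against 22.9% and 12.4% of all genes. NHP2 of the box H/ACA snoRNP had the largest value of its role, 0.45 with CX-5461 labelled 30 min, BOP1 of PeBoW the largest of its role, 0.48 in that comparison, and MPHOSPH10, the scaffold of the Mpp10 complex, the most negative of its role, -0.50 with CX-5461 labelled 10 min. None of these passed, and without control replicate 2 they were at 0.21, 0.26 and -0.21. SENP3 was at 102 and 187 CPM with CX-5461 labelled 30 min and at 120 and 59.8 CPM in the control, so the groups overlapped, and its 0.68 ± 0.32 (0.29 without control replicate 2) did not pass. NOP2, a methyltransferase of the large-subunit rRNA, had the most negative value of the list in any comparison with the control, -0.63 ± 0.31 with RBI2 labelled 10 min, which did not pass (edgeR adjusted p = 0.419) and was -0.80 without control replicate 2. The counts for CX-5461 labelled 30 and 120 min moved with the control library left out, as given under the processing.

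**Figure D3:**
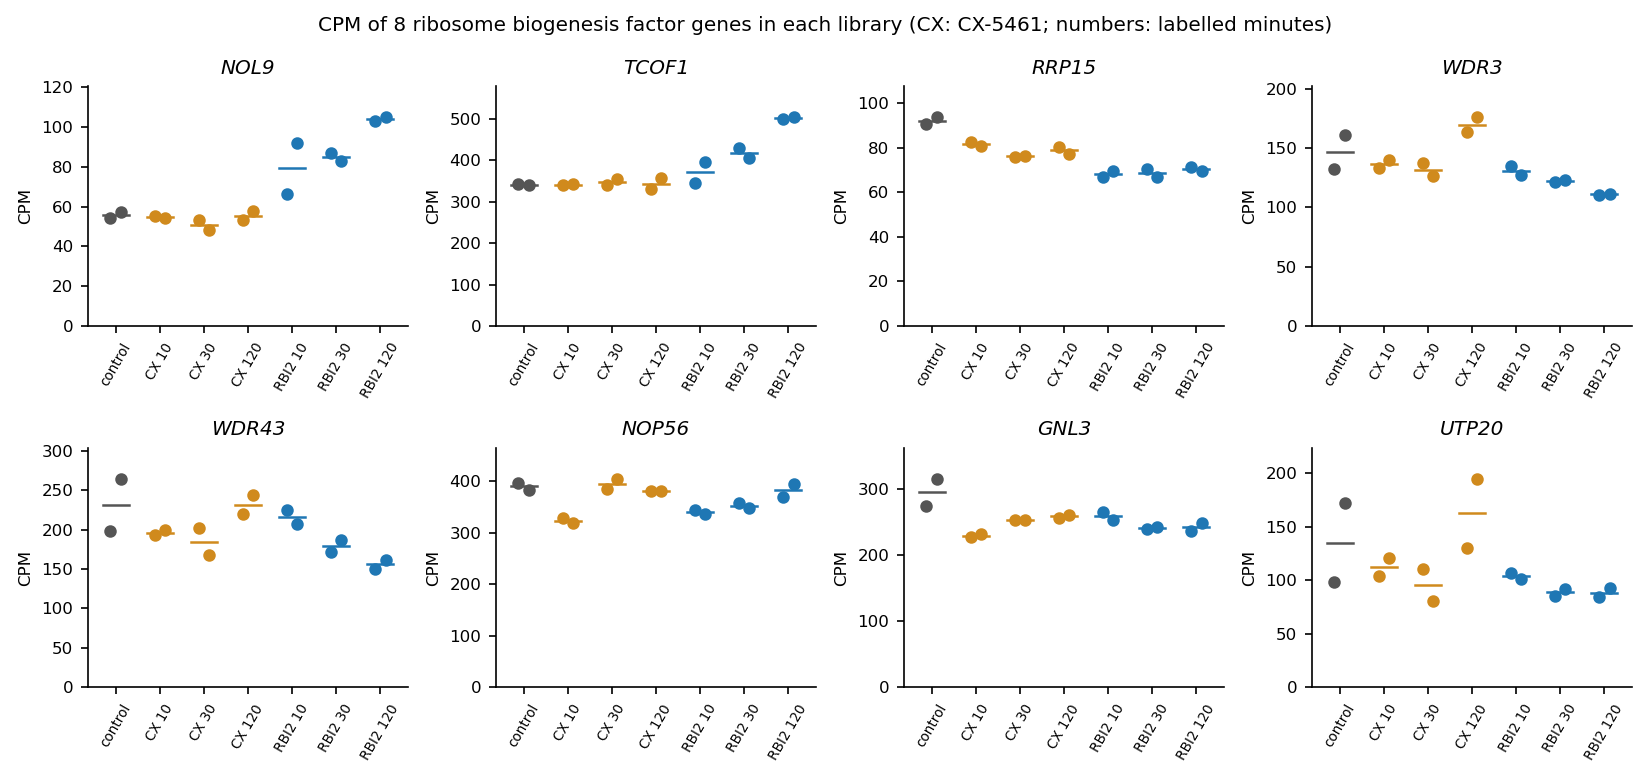
CPM of 8 genes in each of the 14 libraries (points; short lines are the means of 2 libraries). NOL9 and TCOF1 are highest and WDR3 and WDR43 lowest in the RBI2 libraries labelled 120 min, RRP15 is low in all 6 RBI2 libraries and NOP56 is lowest in the CX-5461 libraries labelled 10 min.

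The direct comparison of both compounds at the same dose and label takes its fold changes from the treated libraries, while the control libraries entered the shared fit of the spread. With both labelled 120 min, 12 of 58 genes passed, where 16.1% of all genes did. RBI2 was lower for 10 (10.9% of all genes) and higher for 2 (5.28% of all genes). All 10 lower genes were among the 29 tested genes of lower GC content. Of them 9 belong to the small-subunit processome, whose roles held 6 UTP-A, 4 UTP-B, 5 U3 and Mpp10 and 10 other tested genes. These 9 were WDR43, HEATR1 and NOL11 of UTP-A, WDR3, UTP6 and UTP18 of UTP-B, and UTP20, DCAF13 and DDX47. The last lower gene was TEX10. WDR3 was at 163 and 176 CPM with CX-5461 and at 111 and 111 CPM with RBI2, and the log2 difference was -0.61 ± 0.09 (edgeR adjusted p = 0.00692). HEATR1 was at 87.0 and 119 CPM against 64.8 and 70.4 CPM, at -0.60 ± 0.17 (edgeR adjusted p = 0.0372). UTP20 had the most negative value, -0.88 ± 0.25 (edgeR adjusted p = 0.0409), and its CX-5461 libraries differed from each other, at 130 and 195 CPM, by more than its RBI2 libraries did, at 84.6 and 92.6 CPM. Without CX-5461 replicate 2 HEATR1 was at -0.33 (edgeR adjusted p = 0.285) and UTP20 at -0.53 (edgeR adjusted p = 0.292).

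WDR43 at -0.57, TEX10 at -0.45 and NOL11 at -0.42 were the next in size among the lower genes. DCAF13 turned positive with the offset for GC content and length. The higher genes were NOL9, at 0.91 ± 0.13 (edgeR adjusted p = 0.0067), and TCOF1, at 0.55 ± 0.08 (edgeR adjusted p = 0.0067). With the offset for average transcript length NOL9 was at 0.54. The count of 12 became 2, NOL9 and TCOF1, without CX-5461 replicate 2 (0.414% of all genes) and 0 without RBI2 replicate 1 or 2 (0.187% and 0.0371% of all genes). It was 9 without CX-5461 replicate 1 (8.37% of all genes) and 16 when only the 4 libraries were fitted (22.8% of all genes).

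At the labels of 10 and 30 min no gene differed between the compounds by edgeR's test, where 3.06% and 0.013% of all genes did. At an unadjusted p under 0.05 there were 3 and 5 of 58 genes, against 14.2% and 7.79% of all genes. DESeq2 called 2 and 1 (3.51% and 0.214% of all genes). NOL9 was nearest at 10 min, with 0.54 ± 0.13 (edgeR adjusted p = 0.053). These p-values do not show that the compounds act alike. The standard error of a gene of the list was 0.10 in the median and ran from 0.06 to 0.32.

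Over the 3 labels together, 6 of 58 genes differed between the 6 RBI2 and the 6 CX-5461 libraries, where 8.76% of all genes did. Higher with RBI2 were 2 genes (6.81% of all genes), NOL9 at 0.74 ± 0.09 (edgeR adjusted p = 0.000933) and TCOF1 at 0.32 ± 0.07 (edgeR adjusted p = 0.0179). Lower were 4 genes (1.95% of all genes): UTP14A, which activates the helicase that releases U3, at -0.20 ± 0.04, RRP15 at -0.18 ± 0.04, DCAF13 at -0.17 ± 0.04 and UTP18 at -0.16 ± 0.04. The offset for average transcript length moved RRP15 further below CX-5461 at the labels of 10 and 30 min. It went from -0.26 to -0.75 at 10 min and from -0.15 to -0.66 at 30 min. The libraries of both compounds did not overlap for NOL9, RRP15 and UTP14A, 3 of 58 genes against 2.35% of all genes, and overlapped for TCOF1, DCAF13 and UTP18. NOL9 and UTP14A kept their calls when each of 12 libraries was left out, RRP15 and TCOF1 in 10 of 12 and DCAF13 and UTP18 in 2 of 12. Without 1 library the count ranged from 2, without CX-5461 labelled 120 min replicate 1 (3.65% of all genes), to 8. The 8 came without CX-5461 labelled 30 min replicate 2 (9.82%) or without RBI2 labelled 10 min replicate 1 (8.37%). Leaving out replicate 1 of CX-5461, or replicate 2 of RBI2, at the label of 10 min gave 3 (5.32% and 3.27%). Whether the difference between the compounds changed with the label was tested by interaction: at 10 against 30 min and at 120 against 30 min, 0 of 58 genes were called (0.791% and 0% of all genes), with the lowest edgeR adjusted p for WDR3 at 120 min (-0.50, adjusted p = 0.188). At an unadjusted p under 0.05 there were 2 genes at 10 min (7.62% of all genes), NOP56 and GNL3, and 8 at 120 min (15.2% of all genes), with WDR3, SENP3 and WDR43 lowest; DESeq2 was not run on the interaction.

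Within the compounds, RBI2 labelled 10 and 120 min each against 30 min gave 0 called genes of 58 (0.188% and 0.013% of all genes). At an unadjusted p under 0.05 there were 3 and 5 (9.21% and 10.3% of all genes), and DESeq2 called 0 and 1 (0.616% and 0.927%). CX-5461 labelled 120 min against 30 min also gave 0 (0.013% of all genes). It gave 11 at an unadjusted p under 0.05 (19.3% of all genes) and 0 by DESeq2 (0.11%).

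The fold changes of these genes moved with the GC content of their transcripts. Among the 17 genes called with RBI2 labelled 120 min against the control, the 12 lower genes had canonical transcripts of 35.1 to 47.2% GC, and the 5 higher ones of 48.5 to 59.2%. Spearman's rho between GC content and log2 fold change across the 58 genes was 0.80 in that comparison, against 0.59 across all 15426 genes, as a description across genes that share the same libraries. It was 0.70 for RBI2 against CX-5461 labelled 120 min (0.49 over all genes) and 0.58 and 0.74 for RBI2 labelled 10 and 30 min, 0.68, 0.77 and 0.32 for CX-5461 labelled 10, 30 and 120 min against the control. Without control replicate 2 these values became 0.65 for RBI2 labelled 120 min, -0.12 and 0.60 for RBI2 labelled 10 and 30 min, and 0.18, 0.69 and -0.39 for CX-5461. The sign thus turned for RBI2 labelled 10 min and CX-5461 labelled 120 min. Among treated libraries rho was -0.78 for RBI2 labelled 10 against 30 min and -0.29 for RBI2 against CX-5461 labelled 10 min. It was -0.43 and -0.67 for CX-5461 labelled 10 and 120 against 30 min. The value was 0.33 for RBI2 labelled 120 against 30 min and 0.42 for RBI2 against CX-5461 over the 3 labels. With transcript length rho was -0.03 for RBI2 labelled 120 min, between -0.27 and 0.24 in the other comparisons with the control and 0.45 for RBI2 against CX-5461 labelled 30 min, where that with GC content was 0.17. For CX-5461 labelled 120 against 30 min it was 0.52 (0.47 over all genes). With RBI2 labelled 120 min against the control, 3 of the 29 genes of lower GC content had a value above 0 and 11 were called lower, and of the 29 of higher GC content 21 had a value above 0, 5 were called higher and 1 lower.

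A tilt with GC content also appeared between replicates. In the control the log2 ratio of replicate 2 to replicate 1 had a negative rho with GC content, -0.73. Between the CX-5461 libraries labelled 30 min the rho of this ratio was positive, 0.68, and in the other 5 groups it was between -0.34 and 0.10. With an offset for GC content and length, which was chosen after the data were seen, 5 genes were called with RBI2 labelled 120 min against the control, 3 higher and 2 lower, where 5.91% of all genes were. Of the 17 genes only NOL9 was among them, at 0.82 (edgeR adjusted p = 0.00609), and the 4 others were DDX21 (0.42), DDX18 (0.27), HEATR1 (-0.28) and IMP3 (-0.25). RRP15 had the lowest GC content of the list and came to -0.07 in that fit (edgeR adjusted p = 0.794).

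In the comparison of RBI2 with CX-5461 at 120 min the same offset gave 12 called genes, 5 higher and 7 lower (11.8% of all genes). NOL9 (0.93), TCOF1 (0.39), UTP20 (-0.67), WDR3 (-0.36), HEATR1 (-0.36) and TEX10 (-0.24) were called in both fits. Over the 3 labels it gave 18 genes (14.7% of all genes), NOL9 (0.65) among them. NOL9 had 48.5% GC. What part GC content, or the state of control replicate 2, had in the other fold changes was not tested.

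**Figure D4:**
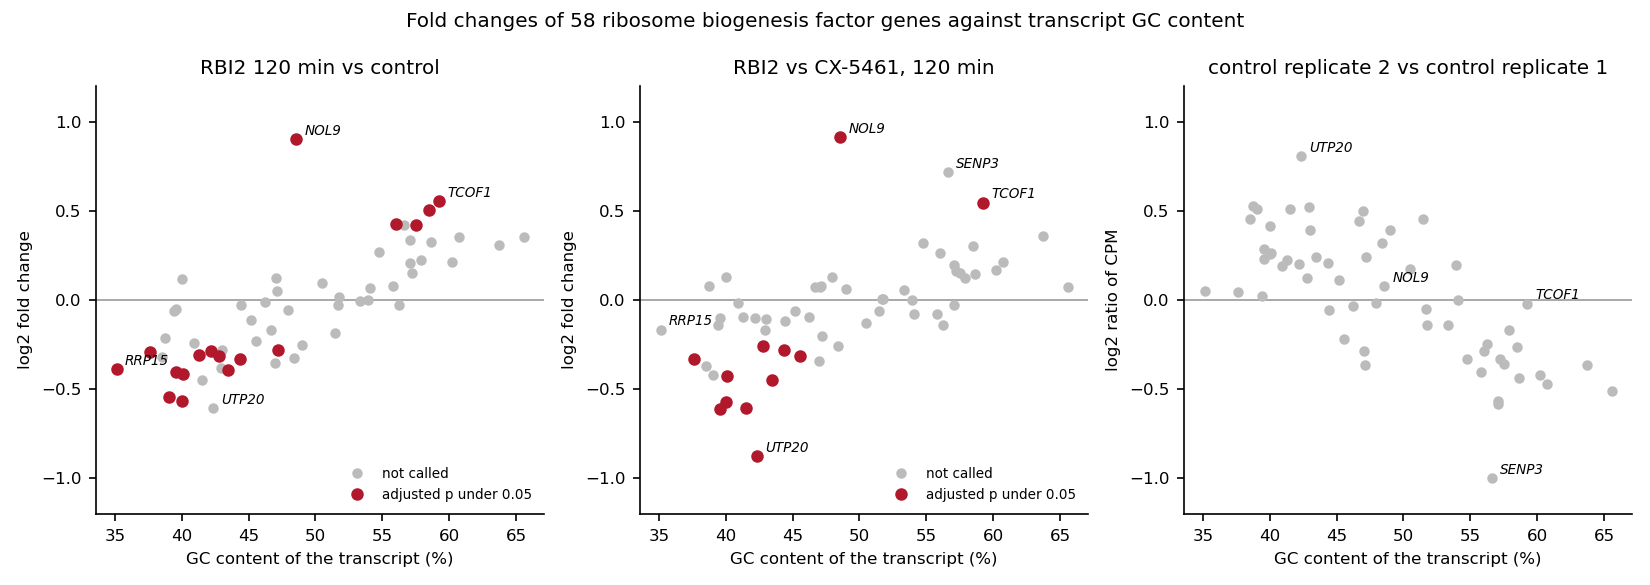
log2 fold change (left, RBI2 labelled 120 min against the control; middle, RBI2 against CX-5461 labelled 120 min) and log2 ratio of CPM of control replicate 2 to control replicate 1 (right) against the GC content of the canonical transcript (%), for 58 genes; red marks an adjusted p under 0.05. Values rise with GC content at left and in the middle and fall with it at right, and NOL9 stands at 0.90 at left and 0.91 in the middle.

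A list of 82 other ribosome biogenesis factors is given by counts. With RBI2 labelled 120 min against the control 20 of 82 passed (24.4%, against 18% of all genes), 9 higher and 11 lower. Without control replicate 2 there were 8, 6 higher and 2 lower (8.27% of all genes). The largest rises were of NAT10, the acetyltransferase of the small-subunit rRNA, at 0.96, and of MDN1, the remodelling AAA ATPase of the large subunit, at 0.93, and the largest falls of CEBPZ at -0.57 and NOC3L at -0.49; MDN1 and NOC3L were not called without control replicate 2. RBI2 against CX-5461 at 120 min gave 16 (19.5%, against 16.1% of all genes), with 4 higher, NOP9 (0.68) and NOM1 (0.47) first, and 12 lower, NOC3L (-0.61) and NMD3 (-0.60) first. CX-5461 labelled 10 min against the control gave 4 (4.88%, against 4.77% of all genes), all lower, with MAK16 (-0.60) and PPAN (-0.59) first, and 2, PPAN and DDX55, without control replicate 2 (3.01% of all genes). Against 30 min it gave PPAN alone (-0.86; 1.22%, against 2.43% of all genes). Over the 3 labels 6 were called (7.32%, against 8.76% of all genes): 3 were higher, NOM1 (0.37) and NAT10 (0.33) first, and 3 lower, CEBPZ (-0.31) and XRN2 (-0.25) first. In the other 9 comparisons no factor of this list passed. Its rho with GC content for RBI2 labelled 120 min was 0.73.

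Most reads of the 60 genes fell on protein-coding transcripts, 85.8 to 88.9% in 13 libraries and 82.8% in control replicate 2. Retained-intron transcripts took 8.09% in control replicate 2, 4.23 and 4.27% in the CX-5461 libraries labelled 10 min, the lowest of all, and 4.98 to 6.31% in the other 11. These shares were not tested. In GNL3 retained-intron transcripts took 4.55 and 5.31% of its reads with CX-5461 labelled 10 min, 14.7 and 15.5% with RBI2 labelled 120 min and 8.14 to 11.5% in the other 10 libraries. In NCL they took 34.9% in control replicate 2 and 15.9 to 21.7% elsewhere. NOP56 kept 48.0 to 56.4% of its reads on protein-coding transcripts. Its CPM on protein-coding transcripts alone was 185 and 179 with CX-5461 labelled 10 min against 209 and 191 in the control, and on the others 143 and 139 against 187 and 191.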

How the data were processed

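RNA-seq of poly-A RNA from 14 libraries was analysed. The authors aligned reads with STAR (2.7.6a), took out those on the rDNA repeat and quantified the rest against GRCh38 transcripts with Salmon (1.3.0), per the submitters' processing notes and the methods. The deposited values are estimated counts and TPM per transcript, as the authors' Salmon run gave them, with the deposited lengths and effective lengths, another unit that the authors did not normalize. Estimated counts were summed by gene through GENCODE 44 and rounded. Identifiers without an entry (3092 of 228754, 1.03 to 1.13% of reads) were left out. A stranded kit was used; whether Salmon was run with strand is not given in the sources used here.

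The main test was edgeR (4.0.16) with TMM scaling and a quasi-likelihood fit of 7 groups over 15426 genes that passed filterByExpr (minimum count 10); the common coefficient of variation was 12.3%. RBI2 against CX-5461 over the 3 labels used 12 libraries with the label as a term and 15442 genes. The threshold was an adjusted p of 0.05. DESeq2 (1.42.0) was an alternative. CPM were computed on TMM-scaled library sizes. The scripts were tested on simulated data. A gene was named by rule if among the 6 largest called rises or falls of a comparison, or highest in TPM or largest in fold change within its role; the other called genes, and those of the opening checks, the transcript classes and the calls made only in an alternative fit, were named after their values were seen. The members and lists were chosen with earlier results of these data known. A marker gene of the cell line is not reported here.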

Additional observations from a re-analysis of the deposited data

How the results depend on the processing

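Every call rests on 2 libraries a group, and the counts against the control depended most on the control libraries. Over the 39 pairs of a gene and a comparison in which it was called, DESeq2 kept 39 calls, DESeq2's size factors in edgeR 37, the fit without the filter on low counts 26, the offset for average transcript length 9, the offset for GC content and length 14, and a single left-out library 92 of 204. The cause of these moves was not tested.

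DESeq2 called 2 and 6 genes of the list for RBI2 labelled 10 and 30 min against the control (1.03 and 3.66% of all genes), 2 and 1 for RBI2 against CX-5461 at 10 and 30 min (3.51 and 0.214%), 1 for RBI2 labelled 120 against 30 min (0.927%) and 11 over the 3 labels (12.3%). Its size factors in edgeR gave 1 for CX-5461 labelled 10 min against the control (4.78%). The percentages in these paragraphs are of all genes tested under the same setting. Without the filter on low counts there were 4 and 15 for RBI2 labelled 10 and 30 min (2.79 and 6.7%) and 5, 7 and 1 for CX-5461 labelled 10, 30 and 120 min against the control (6.78, 6.25 and 1.9%). That fit gave 3 and 3 for RBI2 against CX-5461 at 10 and 30 min (2.72 and 1.06%), 2 for RBI2 labelled 120 against 30 min (1.38%), 2 and 4 for CX-5461 labelled 10 and 120 against 30 min (2.02 and 3.53%), and 11 over the 3 labels (7.4%). With the offset for average transcript length there were 0 for RBI2 labelled 120 min against the control (1.4%), 1 and 4 for RBI2 against CX-5461 at 10 and 120 min (1.24 and 6.56%) and 0 for CX-5461 labelled 10 against 30 min (1.18%), and TCOF1 with RBI2 labelled 120 min turned to -0.20. With the offset for GC content and length, chosen after the data were seen, there were 0 and 5 for RBI2 labelled 10 and 120 min (0.901 and 5.91%) and 4 for CX-5461 labelled 10 min against the control (7.1%), 1 for RBI2 labelled 120 against 30 min (0.0972%) and 18 over the 3 labels (14.7%). That offset turned DCAF13 to 0.12 and NPM1 to 0.0035 with RBI2 labelled 120 min against the control, and DCAF13 to 0.053 against CX-5461. Fitting only the libraries of a comparison gave 0 and 0 for RBI2 labelled 10 and 120 min (0% in both) and 0 for CX-5461 labelled 10 min against the control (0.0208%), 2 and 1 for RBI2 against CX-5461 at 10 and 30 min (10.6 and 0.3%), 4 and 6 for RBI2 labelled 10 and 120 against 30 min (6.65 and 7.04%) and 0 for CX-5461 labelled 10 against 30 min (2.66%). Where a call also needed a log2 difference of 1 in size, every count was 0, and 0 to 1.82% of all genes were called. By CPM instead of TPM 6 genes, not 18, had a highest group mean over 1.5 times the lowest.

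Leaving out 1 library at a time, the counts against the control ranged from 0 to 35, 0 to 40 and 2 to 42 for RBI2 labelled 10, 30 and 120 min and from 0 to 40, 0 to 42 and 0 to 22 for CX-5461, the highest of each without control replicate 1 (21.5 to 43.1%). Over the 3 labels the counts ranged from 2 to 8, where 3.27 to 9.82% of all genes were called. For CX-5461 labelled 10 against 30 min NOP56 ran from -0.36 to -0.25, and its call was lost without any of the 4 libraries.

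With the replicate number as a block, 0, 0 and 16 genes were called for RBI2 (0.169, 0.00648 and 15.5%) and 1, 0 and 0 for CX-5461 labelled 10, 30 and 120 min against the control (4.22, 0 and 0.0648%), 0, 0 and 12 for RBI2 against CX-5461 (2.72, 0.013 and 14.5%), 4 over the 3 labels (6.18%) and 0 for CX-5461 labelled 10 against 30 min (2.1%). The numbers were not taken to pair the libraries: the correlation of same-numbered deviations over 21 pairs of groups ran from -0.18 to 0.18, and 3 exceeded 0.1.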

Other observations

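ENSG00000275464, the annotation entry that shares 94.7% of the 31-base words of PWP2, was tested as a gene of its own. It ran from 53.3 to 70.3 CPM over the 14 libraries and passed in none of the 14 comparisons. Its largest value against the control was 0.22 ± 0.09 with CX-5461 labelled 120 min (edgeR adjusted p = 0.378). The 356 estimated reads of WDR36 in control replicate 2 stand against 0 to 8 in the other 13 libraries. The filter on low counts left that gene out of the main fits. It entered the fits without that filter and without control replicate 1, and was called in both for RBI2 labelled 120 min against the control. The fit without control replicate 1 set it against control replicate 2 alone, so no conclusion is drawn from it.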
